A study of Bos taurus with 8 samples.

Results

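SLBP and SLBP2 are genes of cattle for stem-loop binding proteins. They were chosen as the features that carry the symbol SLBP or SLBP2 in the deposited expression tables, 2 of 21258 features. A feature with the symbol FTL also carries a histone hairpin-binding description and was left out by this rule. The mRNAs of replication-dependent histones, which are made while DNA is copied, end in a short conserved stem-loop instead of a poly(A) tail. SLBP binds that stem-loop and takes part in 3' end formation with the U7 small nuclear ribonucleoprotein, in translation and in the timed decay of these mRNAs, and it is itself destroyed as a cell leaves S phase. SLBP2 is the oocyte form, known from frogs and cattle, which is found with stored histone mRNA in the growing oocyte and disappears as maternal RNA gives way to the embryo's own transcription.

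RNA was sequenced from pools of 8 Holstein cattle embryos collected at the 8-cell stage. There were 3 libraries of embryos from in vitro fertilisation (IVF), 3 of embryos cloned by somatic cell nuclear transfer (SCNT), and 2 of cloned embryos that also overexpressed KDM4E (written KDM4E-SCNT), a demethylase that acts on lysine 9 of histone H3. The series design names SCNT without the overexpression as the control of both other groups, so the 2 comparisons with SCNT share those 3 libraries. The labels leave out the donor cell, the means of overexpression, the hour of collection and whether the pools are separate batches, so every p-value reflects the spread between these libraries alone, which may be technical. All values are FPKM, fragments scaled to transcript length and library size, so levels can be set side by side between genes, and sequencing depth is unknown. Between 10975 and 13050 features per library reached 1 FPKM, with the lowest 3 numbers in SCNT. Mitochondrially encoded transcripts took 6.08% to 7.10% of all FPKM in IVF, 7.54% to 10.6% in SCNT and 11.0% and 11.5% in KDM4E-SCNT. Oocyte and early embryo markers served as a check of the material. Of these, 10 of 10, among them GDF9, BMP15, ZAR1 and DPPA3, were at 1 FPKM or more in all 8 libraries. Oocytes hold these transcripts too, so they cannot show the labelled stage, nor that the groups share it.

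SLBP (ENSBTAG00000001328.4) lies on chromosome 6, from 109613823 to 109629337 in build UMD3.1, and SLBP2 (ENSBTAG00000048053.1) on chromosome 7, from 51344517 to 51348748. The authors' annotation gave SLBP 2 transcript models, 1 of them newly assembled, and SLBP2 5 models, 4 of them newly assembled. SLBP2 sits between CDC25C, a phosphatase that activates CDK1, which ends 378 bp before it, and FAM53C, which starts 736 bp after it. The same neighbours flank SLBP2 in the RefSeq annotation of assembly ARS-UCD2.0. The descriptions attached to the SLBP2 feature also name the FAM53C protein, so its assembled models may hold FAM53C sequence, and the FAM53C feature itself was listed at 0 in 6 of 8 libraries. CDC25C stood at 160, 258 and 173 FPKM in IVF, at 79.4, 136 and 128 FPKM in SCNT and at 206 FPKM in both KDM4E-SCNT libraries.

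SLBP was detected in every library. It stood at 221, 178 and 224 FPKM in IVF replicates 1 to 3, with a mean of 208 ± 25.8 FPKM (SD, n = 3). In SCNT it stood at 97.6, 70.0 and 50.5 FPKM, with a mean of 72.7 ± 23.7 FPKM (SD, n = 3), and in KDM4E-SCNT at 154 and 173 FPKM. The 3 groups did not overlap, and the order was IVF, KDM4E-SCNT, SCNT. SLBP ranked between 454 and 556 of the 21258 features in IVF, between 1201 and 1938 in SCNT, and at 755 and 612 in KDM4E-SCNT.

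SLBP2 was among the most abundant transcripts of the IVF libraries. It stood at 1288, 1578 and 1467 FPKM in IVF (mean 1444 ± 146 FPKM, SD, n = 3), at ranks 54, 40 and 47. In SCNT it stood at 87.5, 102 and 63.9 FPKM (mean 84.5 ± 19.2 FPKM, SD, n = 3), at ranks 1322, 1052 and 1651. The 2 KDM4E-SCNT libraries were far apart, at 641 and 1724 FPKM, a 2.69-fold gap, and at ranks 156 and 43. Replicate 2 lay above every IVF library and replicate 1 below every IVF library, and both were above every SCNT library.

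**Figure D1:**
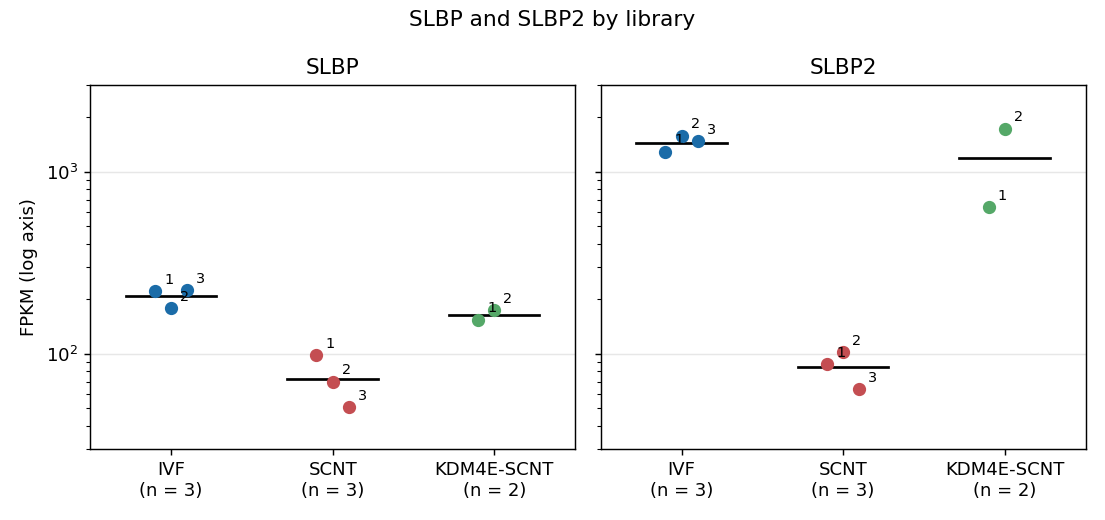
FPKM of SLBP (left) and SLBP2 (right) on a log axis in each of the 8 libraries, with replicate numbers beside the points and a line at each group's mean. SCNT lies lowest for both genes, SLBP2 falls from 1288 to 1578 FPKM in IVF to 63.9 to 102 FPKM in SCNT, and its KDM4E-SCNT points stand at 641 and 1724 FPKM.

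The comparison of IVF with SCNT asks how cloned embryos differ from fertilised ones at the 8-cell stage, and both genes were higher in IVF. SLBP2 was 17.2-fold higher (log2 difference 4.10 ± 0.34, SE; 95% interval 3.37 to 4.83; limma with Benjamini-Hochberg adjusted p = 2.07e-06). All differences here are on the log2(FPKM + 1) scale, tested over the 14839 features with at least 1 FPKM in at least 2 libraries. SLBP was 2.92-fold higher (1.54 ± 0.29, SE; interval 0.92 to 2.16; limma adjusted p = 0.000587). So many features differed in this comparison that a call on its own says little: 58.5% of the features tested passed an adjusted p of 0.05, with 34.9% of all tested higher in IVF, and 64.4% had groups that did not overlap (38.5% with IVF above). The sizes differ more. The difference of SLBP2 was rank 22 from the top of 14839, with 0.142% of features above it, whereas 20.7% of features had a larger difference than SLBP. In pools of whole embryos, fewer cells of a kind and less of the RNA per cell cannot be told apart.

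The comparison of KDM4E-SCNT with SCNT asks how the overexpression changed cloned embryos, and both genes were higher with it. SLBP2 was 12.5-fold higher (log2 difference 3.65 ± 0.38, SE; 95% interval 2.83 to 4.47; limma adjusted p = 0.000422), rank 11 from the top of all differences. The 2 libraries that carry this value stood 2.69-fold apart, and the difference was 4.36 without KDM4E-SCNT replicate 1 and 2.93 without replicate 2 (limma adjusted p = 0.000298 and 0.00720). SLBP was 2.30-fold higher (1.20 ± 0.32, SE; interval 0.51 to 1.90; limma adjusted p = 0.0135), with 21.7% of features showing a larger difference. Its call was lost without SCNT replicate 3 (0.97, limma adjusted p = 0.0603), without KDM4E-SCNT replicate 2 (1.12, adjusted p = 0.0899) and under median-ratio scaling of the libraries (0.73, adjusted p = 0.0938). Of all features tested, 32.6% were called here, with 21.6% of all tested higher in KDM4E-SCNT, and 59.5% had groups that did not overlap (38.1% with KDM4E-SCNT above).

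KDM4E-SCNT and IVF could not be told apart in either gene. SLBP was lower in KDM4E-SCNT by a log2 difference of -0.34 ± 0.32 (SE; 95% interval -1.03 to 0.35; limma adjusted p = 0.610). The highest KDM4E-SCNT library, at 173 FPKM, stood just below the lowest IVF library, at 178 FPKM. SLBP2 differed by -0.45 ± 0.38 (SE; interval -1.27 to 0.36; limma adjusted p = 0.554), with overlapping groups. For SLBP2 the sign rested on 1 library: the difference was 0.26 without KDM4E-SCNT replicate 1 and -1.17 without replicate 2 (limma adjusted p = 0.914 and 0.0537). In this comparison 6.52% of all features were called, with 5.9% of all tested higher in KDM4E-SCNT, and 33.9% had groups that did not overlap.

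**Figure D2:**
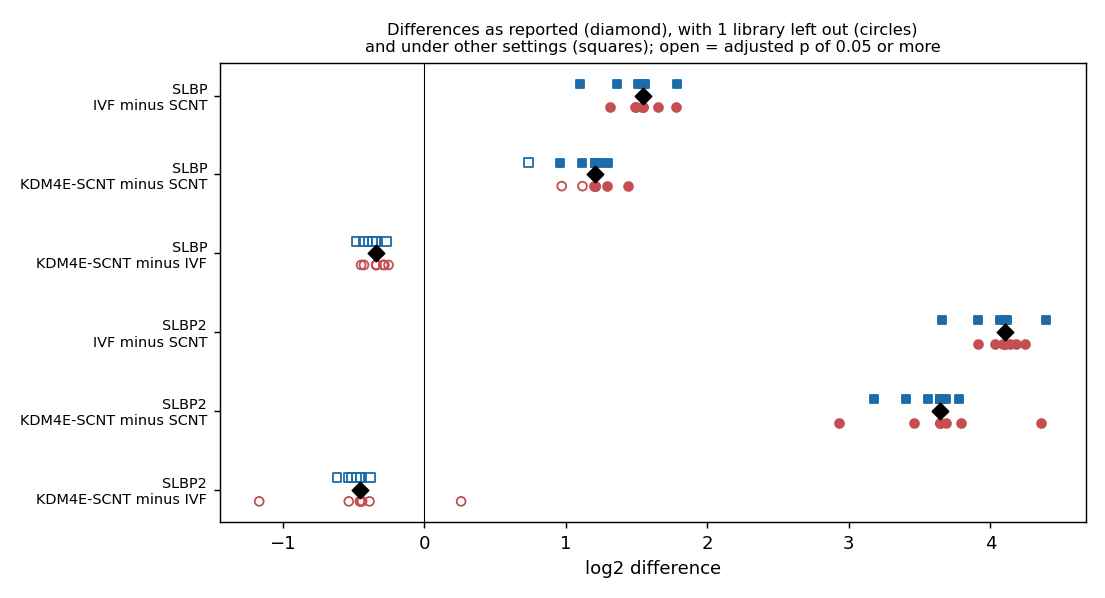
Log2 differences of SLBP and SLBP2 in the 3 comparisons (x axis, log2 of FPKM + 1 unless the setting changes it) as reported (diamonds), with 1 library left out (circles) and under the other settings (squares); open symbols have a limma adjusted p of 0.05 or more. Both IVF minus SCNT differences and that of SLBP2 in KDM4E-SCNT minus SCNT stayed filled throughout, whereas SLBP in KDM4E-SCNT minus SCNT had 3 open symbols, at 0.73, 0.97 and 1.12.

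The balance between the oocyte form and the somatic form was read within each library as the ratio of SLBP2 to SLBP FPKM. In IVF the ratio was 5.82, 8.86 and 6.56 (mean 7.08 ± 1.59, SD, n = 3). In SCNT it was 0.896, 1.46 and 1.26 (mean 1.21 ± 0.285, SD, n = 3), close to equal as listed, with SLBP the higher in replicate 1. FPKM depends on the length given to each gene, and the SLBP2 models may hold FAM53C sequence. Which form was the more abundant in SCNT is therefore uncertain. In KDM4E-SCNT the ratio was 4.17 and 9.95, on either side of all 3 IVF values. Expressed as a share, SLBP made up 14.7%, 10.1% and 13.2% of the summed FPKM of both genes in IVF, 52.7%, 40.7% and 44.2% in SCNT, and 19.3% and 9.13% in KDM4E-SCNT. The summed FPKM of both genes was 1652 ± 128 (SD, n = 3) in IVF, 157 ± 37.6 (SD, n = 3) in SCNT, and 794 and 1898 in the 2 KDM4E-SCNT libraries.

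The ratio was 5.88-fold higher in IVF than in SCNT (log2 difference 2.56, exact two-sided permutation p = 0.1), with no overlap between the groups. Against SCNT, the ratio of KDM4E-SCNT was 5.44-fold higher (2.44, exact two-sided permutation p = 0.2), again with no overlap. These are the smallest p-values that 3 against 3 and 2 against 3 libraries can give, so the design cannot reach 0.05, and adjusted over the 3 comparisons of the ratio both were 0.3. The ratio of KDM4E-SCNT differed from that of IVF by -0.11 on the log2 scale (exact two-sided permutation p = 1), with overlapping groups.

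**Figure D3:**
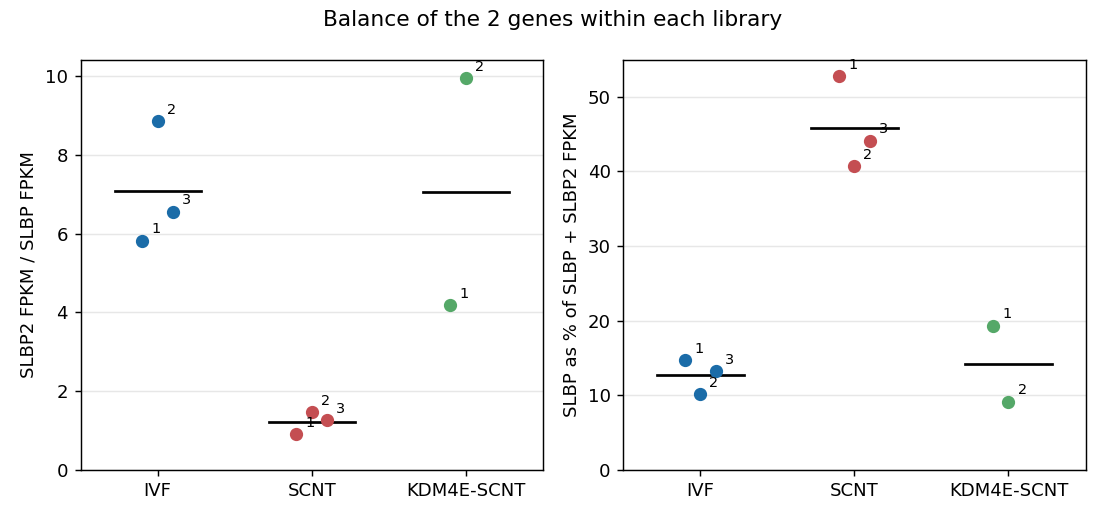
Ratio of SLBP2 to SLBP FPKM (left) and SLBP as a percentage of the summed FPKM of both genes (right) in each library, with replicate numbers and a line at each group's mean. SCNT ratios lie between 0.896 and 1.46, all other libraries between 4.17 and 9.95.

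SLBP2 was set beside 34 transcripts known from the oocyte, such as egg coat proteins, oocyte growth factors and components of the maternal cytoplasm. All 34 were higher in IVF than in SCNT by limma (adjusted p under 0.05), beside 34.9% of all features tested. Their median log2 difference was 2.85 against 0.39 over all features tested. In KDM4E-SCNT, 31 of 34 were higher than in SCNT, beside 21.6% of all features, with a median of 1.93 against 0.32. The first count was 33 or 34 with any 1 library left out. The second was 13 without KDM4E-SCNT replicate 2 and 25 to 31 without any other single library. The difference of SLBP2 was at the top of this range. Only H1FOO, the oocyte linker histone, had a larger difference in IVF minus SCNT (4.57 ± 0.45, SE, limma adjusted p = 5.92e-06), and none of the 34 had a larger one in KDM4E-SCNT minus SCNT, where the nearest was GDF9, an oocyte growth factor (3.34 ± 0.42, SE, limma adjusted p = 0.000615). The difference of SLBP lay near the bottom: 31 of the 34 oocyte transcripts exceeded it in IVF minus SCNT and 30 in KDM4E-SCNT minus SCNT. By level, SLBP2 was exceeded by 3 of the 34 in IVF (the highest, BTG4, an adaptor of maternal mRNA deadenylation, averaged 22564 FPKM) and by 6 in SCNT. ZP2, an egg coat protein, fell from 472 ± 64.2 FPKM (SD, n = 3) in IVF to 42.3 ± 4.05 FPKM (SD, n = 3) in SCNT and stood at 208 and 490 FPKM in KDM4E-SCNT, the same order of the KDM4E-SCNT replicates as SLBP2. NLRP14 stood at 235 ± 14.8 FPKM in IVF (SD, n = 3), 25.7 ± 6.07 FPKM in SCNT (SD, n = 3), and 113 and 212 FPKM in KDM4E-SCNT.

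H1FOO and SLBP2 parted in the KDM4E-SCNT libraries. H1FOO stood at 979, 223 and 811 FPKM in IVF, at 22.9, 25.8 and 19.8 FPKM in SCNT and at only 99.8 and 120 FPKM in KDM4E-SCNT. It was lower in KDM4E-SCNT than in IVF (log2 difference -2.35 ± 0.50, SE, limma adjusted p = 0.0126), a call lost without KDM4E-SCNT replicate 1 (-2.22, adjusted p = 0.142) and without IVF replicate 3 (-2.09, adjusted p = 0.0552). It was also lost with no filter on low values and with only these 2 groups fitted (limma adjusted p = 0.0536 and 0.0539). Of the 34, H1FOO and ZAR1L were the only ones called lower in KDM4E-SCNT than in IVF, beside 0.62% of all features. ZAR1L (-1.20 ± 0.33, SE, limma adjusted p = 0.0479) lost its call with a pseudocount of 0.1, no filter or no mitochondrial genes (limma adjusted p = 0.0547 to 0.101). It also lost its call with a replicate block, with only these 2 groups fitted and without IVF replicate 1 or 3 (limma adjusted p = 0.0788 to 0.156). The list's median was -0.74 against -0.03 over all features. That count of 2 was 0 without IVF replicate 3 or KDM4E-SCNT replicate 1, 4 without KDM4E-SCNT replicate 2 and 8 without IVF replicate 2.

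**Figure D4:**
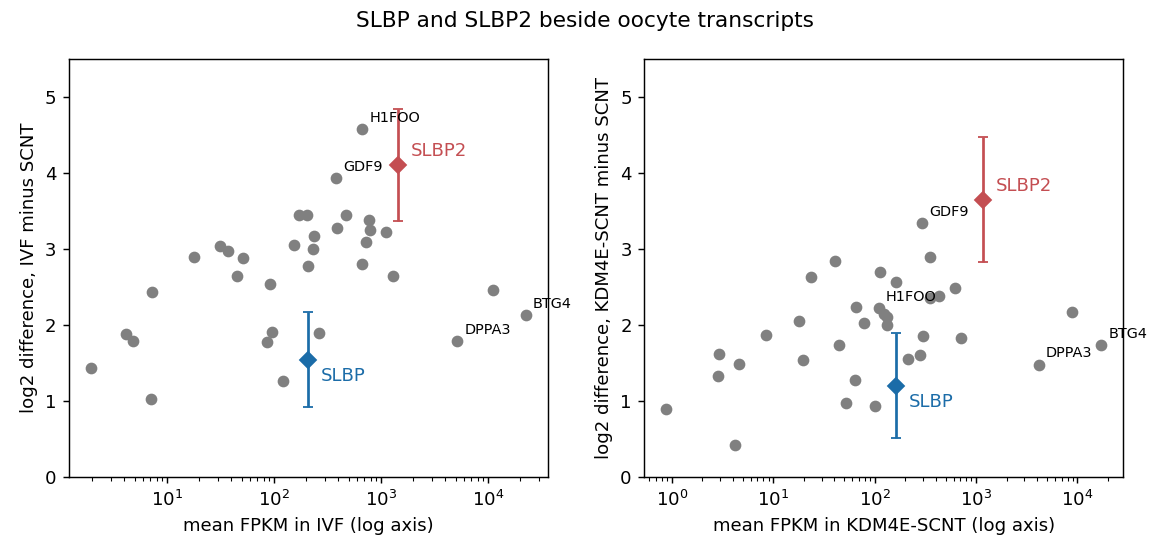
Log2 difference from SCNT (y axis) against mean FPKM (x axis, log) for 34 oocyte transcripts (grey), SLBP (blue) and SLBP2 (red), for IVF (left) and KDM4E-SCNT (right); bars are 95% intervals. SLBP2, at 4.10 and 3.65, lies at or near the top of the grey points and SLBP, at 1.54 and 1.20, near the bottom.

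Markers of other cells that pools could hold also moved between the groups. The summed FPKM of 8 cumulus and granulosa markers was 101 to 163 in IVF, 16.6 to 25.0 in SCNT and 46.0 and 99.2 in KDM4E-SCNT, the order seen for SLBP2. Of the 4 tested, 3 were higher in IVF than in SCNT and 1 lower, beside 34.9% and 23.6% of all features. STAR, a cholesterol carrier, averaged 59.2 ± 24.1 FPKM in IVF, against 7.46 ± 3.23 FPKM in SCNT (SD, n = 3 each), and HAS2, a hyaluronan synthase, averaged 55.9 ± 14.2 and 6.81 ± 2.45 FPKM (SD, n = 3 each). TNFAIP6 was the 1 that went the other way, at 1.98 ± 0.997 FPKM in IVF against 5.24 ± 2.56 FPKM in SCNT (SD, n = 3 each). Its difference was -1.06 ± 0.43 (SE, limma adjusted p = 0.0492), a call lost with no filter on low values (limma adjusted p = 0.0840). It was also lost with a pseudocount of 0.1, with a replicate block and without any single IVF or SCNT library (limma adjusted p = 0.0533 to 0.205). The follicle markers FSHR, AMH and CYP19A1 were at most 0.17, 0.16 and 0.27 FPKM in any library. The summed FPKM of 10 fibroblast markers was 23.7 to 42.6 in IVF, 93.1 to 161 in SCNT, and 48.8 and 320 in KDM4E-SCNT; 3 of 8 tested were lower and 1 higher in IVF than in SCNT, so 4 of 8 were called, near the 58.5% of all features. LGALS1, a lectin, differed between the KDM4E-SCNT libraries, with 10.9 FPKM in replicate 1 and 127 FPKM in replicate 2. SPARC, a matrix protein, ranged from 0.52 to 0.94 FPKM in IVF and from 23.6 to 50.6 FPKM in SCNT, and had 10.4 and 53.3 FPKM in KDM4E-SCNT (IVF minus SCNT -4.34 ± 0.50, SE, limma adjusted p = 1.81e-05). DCN, a matrix proteoglycan, was also lower in IVF (-2.64 ± 0.48, SE, limma adjusted p = 0.000526). LUM, another, did not pass the test there (-1.87 ± 0.82, SE, limma adjusted p = 0.0694) but did under 8 of the 18 alternatives (limma adjusted p = 0.0305 to 0.0459). FN1 of the same list went the other way, at 11.1 ± 4.27 FPKM in IVF against 3.05 ± 3.78 FPKM in SCNT (SD, n = 3 each). Its difference was 1.95 ± 0.56 (SE, limma adjusted p = 0.00919). THY1 was listed at 0 in all 3 SCNT libraries and COL3A1 was at most 2.71 FPKM in any library. The part of such cells in the SLBP2 and SLBP differences was not tested.

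The features whose pattern over the 8 libraries was most like SLBP2 were ranked by Pearson correlation of log2(FPKM + 1), among 5063 features with a symbol and a mean of at least 3 on that scale. They were GGCT (0.997), PARP12 (0.996), GDF9 (0.996), GMPS (0.996) and DSTN (0.996), an enzyme of glutathione turnover, an ADP-ribosyltransferase, an oocyte growth factor, an enzyme of guanine nucleotide synthesis and an actin-severing protein. DSTN stood at 748, 923 and 978 FPKM in IVF, at 99.1, 121 and 98.8 FPKM in SCNT and at 449 and 1175 FPKM in KDM4E-SCNT. For SLBP they were RNF141 (0.986), HCFC1R1 (0.985), BANF1 (0.985), SCAMP1 (0.983) and PSMD5 (0.981). RNF141 stood at 137, 107 and 143 FPKM in IVF, at 55.6, 44.0 and 40.2 FPKM in SCNT and at 93.6 and 101 FPKM in KDM4E-SCNT. Such values are common here: 1260 features reached 0.9 with SLBP2 and 656 with SLBP, since the 8 libraries share the same 3 groups. SLBP and SLBP2 correlated at 0.939.

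The factors that cut histone mRNA downstream of the stem-loop were examined next: the U7-specific proteins, the shared cleavage factors, the cap-binding complex and proteins of the histone gene body. Of 24 tested, 3 were higher and 7 lower in IVF than in SCNT, beside 34.9% and 23.6% of all features. The other 14 were not called, and the list's median difference was -0.41 against 0.39 over all features. Under median-ratio scaling, which moved the median of all features by -0.29, the counts were 2 higher and 13 lower. LSM10 and LSM11, the proteins that set the U7 particle apart from splicing particles, moved in opposite directions. LSM11 stood at 16.4, 13.5 and 15.4 FPKM in IVF, at 1.02, 3.38 and 1.95 FPKM in SCNT and at 8.11 and 9.68 FPKM in KDM4E-SCNT, and was higher in IVF than in SCNT (2.44 ± 0.35, SE, limma adjusted p = 9.14e-05). LSM10 stood at 6.22, 5.09 and 1.24 FPKM in IVF, at 45.0, 14.3 and 23.7 FPKM in SCNT and at 3.33 and 10.6 FPKM in KDM4E-SCNT, and was lower in IVF than in SCNT (-2.49 ± 0.54, SE, limma adjusted p = 0.00166). SLBP2 thus shared its order of groups with LSM11 and not with LSM10.

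The 2 subunits of the nuclear cap-binding complex also moved apart. NCBP2, the subunit that holds the cap, stood at 44.1, 34.9 and 43.2 FPKM in IVF, at 595, 681 and 694 FPKM in SCNT and at 309 and 134 FPKM in KDM4E-SCNT (IVF minus SCNT -3.98 ± 0.31, SE, limma adjusted p = 1.31e-06). NCBP1, its scaffold partner, averaged 81.1 ± 15.2 FPKM in IVF, against 32.0 ± 3.36 FPKM in SCNT (SD, n = 3 each; 1.31 ± 0.27, SE, limma adjusted p = 0.00123). NPAT, the activator of histone gene transcription, averaged 2.30 ± 0.442 FPKM in IVF, against 16.4 ± 3.16 FPKM in SCNT (SD, n = 3 each; -2.39 ± 0.31, SE, limma adjusted p = 4.62e-05). SNRPB, a core protein of the U7 and splicing particles, fell in the same direction (-2.80 ± 0.50, SE), as did NELFE, a subunit of the elongation factor NELF (-1.25 ± 0.32, SE; limma adjusted p = 0.000419 and 0.00479). ZNF473, CASP8AP2, CPSF3, which is the nuclease, and CSTF1 and CSTF3 did not pass the test in any of the 3 comparisons.

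Between KDM4E-SCNT and SCNT, 2 of the 24 processing factors were higher and 2 lower, beside 21.6% and 11.0% of all features. The other 20 were not called, and the list's median was -0.25 against 0.32 over all features. LSM11 and NCBP1 were the higher ones (1.73 ± 0.39 and 0.90 ± 0.30, SE; limma adjusted p = 0.00630 and 0.0377), and NCBP2 and LSM10 the lower ones (-1.68 ± 0.35 and -1.87 ± 0.60, SE; limma adjusted p = 0.00404 and 0.0315). LSM10 lost its call with a pseudocount of 0.1, with no filter on low values and without SCNT replicate 1 or 3 (limma adjusted p = 0.0552 to 0.114). It also lost its call without KDM4E-SCNT replicate 1 (-1.15), and LSM11 lost its call without KDM4E-SCNT replicate 2 (1.62). The call of NCBP1 was lost under every scaling tried, with differences of 0.43 to 0.79, and without 5 libraries in turn. The list's count was 1 without KDM4E-SCNT replicate 2 and 2 without SCNT replicate 1, SCNT replicate 3 or KDM4E-SCNT replicate 1, and the call of NCBP2 itself was lost without KDM4E-SCNT replicate 2 (limma adjusted p = 0.0527). The counts were 1 higher and 5 lower under median-ratio scaling and 1 higher and 3 lower under upper-quartile scaling. Between KDM4E-SCNT and IVF, NCBP2 and NPAT were the 2 factors called, both higher in KDM4E-SCNT (2.30 ± 0.35 and 1.43 ± 0.35, SE; limma adjusted p = 0.00164 and 0.0272). That is 2 of 24, beside 5.9% of all features higher there. The call of NPAT was lost without either KDM4E-SCNT library (limma adjusted p = 0.177 and 0.0658) and without IVF replicate 2 or 3.

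The partners of SLBP in translation and decay of histone mRNA were taken next. Of 26 tested, 6 were higher and 10 lower in IVF than in SCNT and 10 were not called, with a median of -0.12 against 0.39 over all features. The share called, 16 of 26, is near the 58.5% of all features. Median-ratio scaling gave 3 higher and 12 lower. PAIP1, which links poly(A)-binding protein to the cap complex and belongs to the translation side, stood at 6621, 9967 and 7011 FPKM in IVF, at 642, 1065 and 872 FPKM in SCNT and at 4192 and 6487 FPKM in KDM4E-SCNT. It was higher in IVF than in SCNT (3.20 ± 0.27, SE, limma adjusted p = 2.32e-06). PABPC1, the somatic poly(A)-binding protein that PAIP1 binds, went the other way, from 62.0 ± 32.2 FPKM in IVF to 427 ± 117 FPKM in SCNT (SD, n = 3 each; -2.85 ± 0.35, SE, limma adjusted p = 3e-05). EIF4G3, a scaffold of the cap complex, was low but higher in IVF (5.88 ± 0.869 against 1.08 ± 0.656 FPKM, SD, n = 3 each; 1.77 ± 0.35, SE, limma adjusted p = 0.00101), while EIF4G2 was lower (-0.98 ± 0.24, SE, limma adjusted p = 0.00418). EIF4G1 was lower in IVF too (-0.92 ± 0.31, SE, limma adjusted p = 0.0213), a call lost without SCNT replicate 1 or 2 (limma adjusted p = 0.0662 and 0.0504). The EIF4G2 call was lost under quantile normalization (-0.53, limma adjusted p = 0.0853).

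MIF4GD, the adaptor that joins SLBP to the translation machinery, varied widely between replicates. It stood at 41.4, 6.25 and 41.4 FPKM in IVF, at 11.4, 0.98 and 4.46 FPKM in SCNT and at 6.23 and 13.9 FPKM in KDM4E-SCNT. Its difference passed the test in IVF minus SCNT (2.20 ± 0.74, SE, limma adjusted p = 0.0231), but the groups overlapped and the call was lost without IVF replicate 1, IVF replicate 3 or SCNT replicate 2 (limma adjusted p = 0.0820 to 0.0924). DDX19B, a helicase of mRNA export, was lower in IVF (2.71 ± 1.66 against 17.9 ± 2.71 FPKM, SD, n = 3 each; -2.43 ± 0.38, SE, limma adjusted p = 0.000169), and its close relative DDX19A was not called (0.16 ± 0.32, SE).

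On the decay side, ERI1, the exonuclease that sits on the stem-loop opposite SLBP, averaged 33.9 ± 10.2 FPKM in IVF, against 91.6 ± 11.8 FPKM in SCNT (SD, n = 3 each) and stood at 48.8 and 28.9 FPKM in KDM4E-SCNT. It was lower in IVF than in SCNT (-1.45 ± 0.32, SE, limma adjusted p = 0.00196). ZCCHC6, which adds uridines to histone mRNA before decay, fell from 238 ± 62.6 FPKM in SCNT to 37.1 ± 6.19 FPKM in IVF (SD, n = 3 each; -2.63 ± 0.30, SE, limma adjusted p = 1.64e-05). Of the LSM ring that binds the uridylated end, LSM3, LSM5 and LSM6 were lower in IVF (-1.50, -2.20 and -1.41; limma adjusted p = 0.000462, 0.000664 and 0.00111), LSM2 was higher (0.83, adjusted p = 0.0379, lost without IVF replicate 1 or any of 4 other libraries and under all 3 scalings, with 0.39 and adjusted p = 0.298 under median-ratio scaling), and LSM1, LSM4 and LSM7 were not called. Other decay factors went the other way. XRN1, the exonuclease that degrades decapped mRNA, was higher in IVF, at 16.4 ± 5.41 FPKM against 7.28 ± 0.713 FPKM in SCNT (SD, n = 3 each; 1.03 ± 0.34, SE, limma adjusted p = 0.0195). That call was lost under median-ratio scaling (0.62, adjusted p = 0.127) and quantile normalization and without IVF replicate 2 or SCNT replicate 3. MTPAP, the mitochondrial poly(A) polymerase, was higher too (1.04 ± 0.31, SE, limma adjusted p = 0.0110), a call lost under median-ratio scaling (0.62, adjusted p = 0.0943). UPF2, DCP1A, EXOSC3 and EXOSC10 were not called.

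Between KDM4E-SCNT and SCNT, 2 of the 26 partners were higher (PAIP1 and EIF4G3), 5 lower (PABPC1, ZCCHC6, ERI1, LSM3 and EIF4G2) and 19 not called, with a median of -0.15 against 0.32 over all features. That is 7 of 26 called, beside 32.6% of all features. PAIP1 rose by 2.63 ± 0.30 (SE, limma adjusted p = 0.000482), whereas the calls of PABPC1, ZCCHC6, ERI1 and LSM3 (-1.65, -1.52, -1.26 and -1.01) and those of EIF4G3 and EIF4G2 (1.38 and -0.76) were lost without KDM4E-SCNT replicate 2 (limma adjusted p = 0.0796, 0.0662, 0.177, 0.0706, 0.0592 and 0.120 in that order). The list's count was 4 without SCNT replicate 1 and 4 without KDM4E-SCNT replicate 1. Median-ratio scaling gave 1 higher and 8 lower. Between KDM4E-SCNT and IVF, limma called 0 of the 26 at an adjusted p of 0.05, with 7 at an unadjusted p under 0.05, and up to 2 under the other settings and with 1 library left out.

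The factors of SLBP turnover comprise the kinases that mark SLBP at the end of S phase and the ubiquitin ligases that recognise it. Of 21 tested, 2 were higher and 11 lower in IVF than in SCNT, beside 34.9% and 23.6% of all features, and 8 were not called. The list's median was -0.77 against 0.39 over all features, and median-ratio scaling gave 0 higher and 13 lower. CUL2, the cullin of the ligase that uses FEM1 proteins, stood at 2.30, 0.92 and 1.54 FPKM in IVF, at 45.5, 27.2 and 41.3 FPKM in SCNT and at 13.1 and 4.66 FPKM in KDM4E-SCNT (IVF minus SCNT -3.92 ± 0.40, SE, limma adjusted p = 7.92e-06). Its adaptor ELOB fell from 753 ± 52.3 FPKM in SCNT to 88.5 ± 34.2 FPKM in IVF (SD, n = 3 each; -3.16 ± 0.36, SE, limma adjusted p = 1.65e-05). FEM1A was lower in IVF at low levels (0.300 ± 0.227 against 2.36 ± 0.502 FPKM, SD, n = 3 each; -1.38 ± 0.34, SE, limma adjusted p = 0.00420), and FEM1B and FEM1C were not called. SKP1, the adaptor of cullin 1 ligases, was very abundant in SCNT, at 14727, 11445 and 13121 FPKM, against 1402, 994 and 2010 FPKM in IVF and 5561 and 1983 FPKM in KDM4E-SCNT (-3.21 ± 0.35, SE, limma adjusted p = 1.32e-05).

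CDK1, the kinase that starts SLBP destruction, averaged 113 ± 24.6 FPKM in IVF, against 668 ± 103 FPKM in SCNT (SD, n = 3 each) and stood at 515 and 289 FPKM in KDM4E-SCNT (IVF minus SCNT -2.56 ± 0.29, SE, limma adjusted p = 1.48e-05). CCNA1, the germline cyclin A, was lower in IVF by a similar size (-2.88 ± 0.37, SE, limma adjusted p = 4.23e-05), while CCNA2, the cyclin A of dividing somatic cells, was level at 205.1 ± 23.1 FPKM in IVF, against 205 ± 38.8 FPKM in SCNT (SD, n = 3 each; 0.01 ± 0.26, SE, limma adjusted p = 0.974). CSNK2A1 and CSNK2B, subunits of the other kinase that marks SLBP, were the 2 called higher (1.23 and 0.92; limma adjusted p = 0.0139 and 0.0232). Both calls were lost under median-ratio scaling (limma adjusted p = 0.0770 and 0.194) and without SCNT replicate 2 or 3. CCNF, the cyclin F box protein that targets SLBP in G2, stayed under 1 FPKM in 7 libraries, stood at 5.40 FPKM in KDM4E-SCNT replicate 1 and was not tested.

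In KDM4E-SCNT minus SCNT, 6 of the 21 were lower and 0 higher, beside 11.0% and 21.6% of all features. The other 15 were not called, and the list's median was -0.51 against 0.32 over all features. Among the 6 were CUL2 (-2.09), SKP1 (-1.97), ELOB (-1.68), CCNA1 (-1.35) and CUL1 (-1.23), with limma adjusted p from 0.00356 to 0.0267. Without KDM4E-SCNT replicate 2 the count was 1, and without SCNT replicate 1 or SCNT replicate 3 it was 3; under median-ratio scaling it was 10. In KDM4E-SCNT minus IVF, CUL2, ELOB, CDK1 and CCNA1 were the 4 called, all higher in KDM4E-SCNT (1.82, 1.48, 1.79 and 1.53; limma adjusted p = 0.0276, 0.0458, 0.00458 and 0.0458). That is 4 of 21, beside 5.9% of all features higher there. The count was 0 without KDM4E-SCNT replicate 1, the library in which CUL2, ELOB, CDK1 and CCNA1 were the higher of the pair, 1 without IVF replicate 2 or IVF replicate 3, and 2 without SCNT replicate 1. It was 1 with no filter or with only the 2 groups fitted, where CDK1 alone kept its call, and 2 under median-ratio scaling, upper-quartile scaling and plain moderation. The call of ELOB was lost under all 3 scalings (limma adjusted p = 0.0583 to 0.0630), and that of CCNA1 under median-ratio and upper-quartile scaling (adjusted p = 0.0664 and 0.0572).

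**Figure D5:**
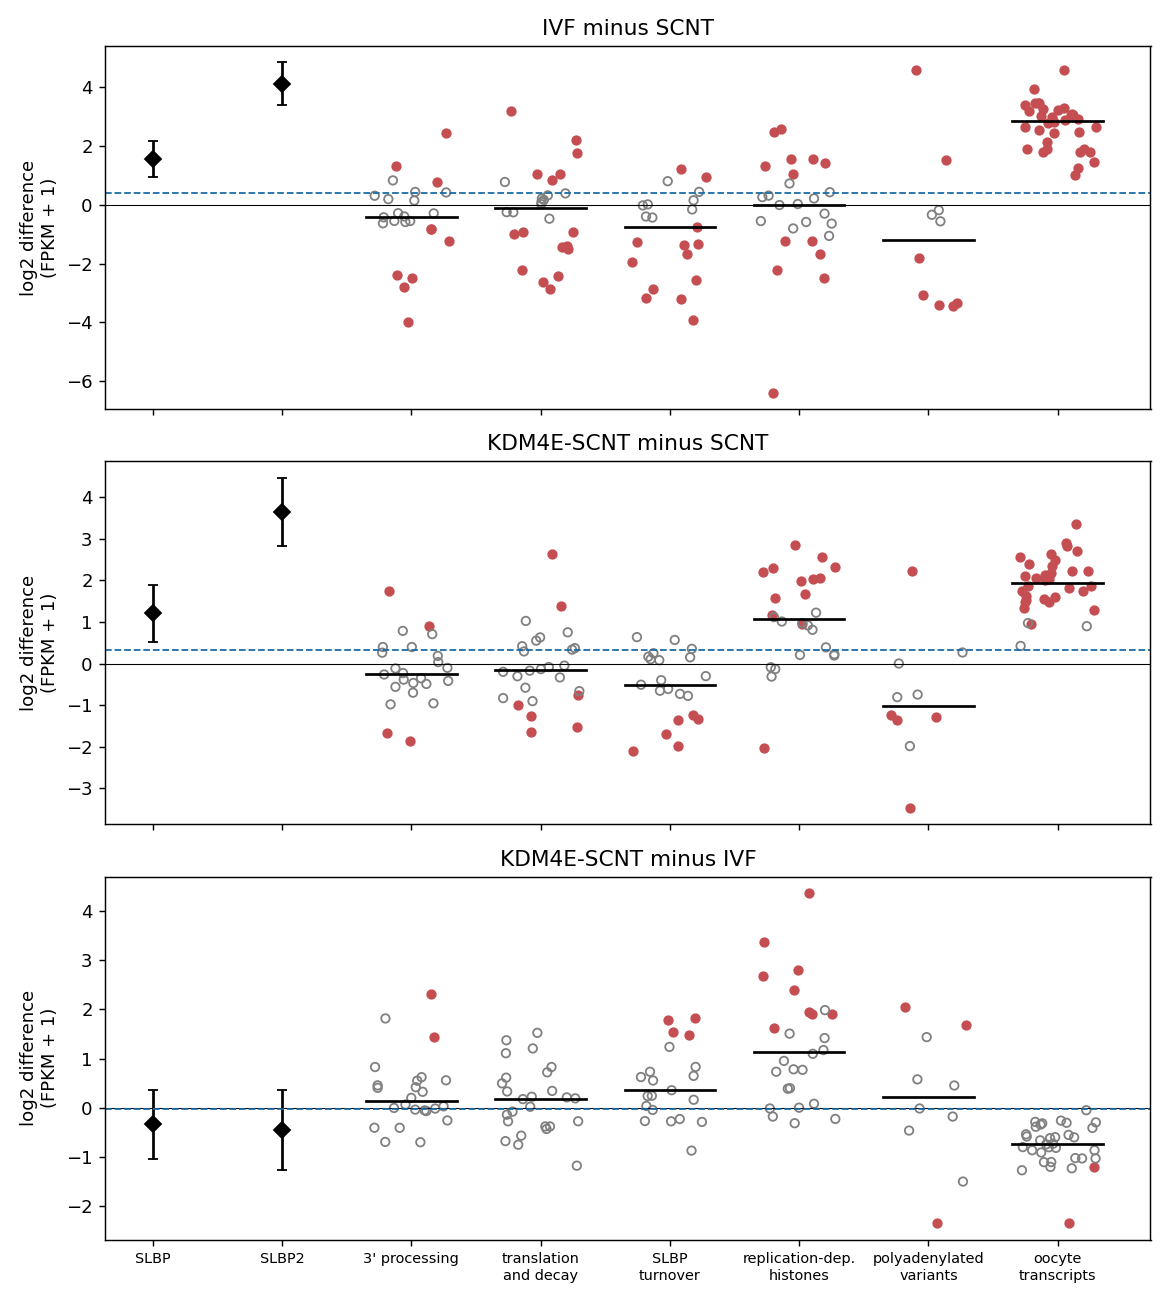
Log2 differences of SLBP and SLBP2 (diamonds, with 95% intervals) and of the tested members of 6 gene lists (points; filled red where the limma adjusted p is under 0.05) in the 3 comparisons; bars are list medians and the dashed line the median of all features tested. Oocyte transcripts lie above the dashed line with SLBP2 in the upper panels, and the turnover factors have medians of -0.77 and -0.51 there.

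The clients of SLBP, the replication-dependent histone genes, did not share the order of groups seen for SLBP2. Near-identical copies can share reads, so single histone genes are uncertain, and the labels do not state the primer used for cDNA synthesis, on which the capture of RNA without a poly(A) tail depends; its part in these values was not tested. The summed FPKM of 27 replication-dependent histone features was 1950 to 2733 in IVF, 2405 to 4011 in SCNT, and 4591 and 4627 in KDM4E-SCNT. IVF and SCNT overlapped, and both KDM4E-SCNT libraries lay above all others. A large part of these sums came from 1 feature, HIST1H2AK. It stood at 1043, 1225 and 1542 FPKM in IVF, at 971, 1162 and 1122 FPKM in SCNT and at 2289 and 1894 FPKM in KDM4E-SCNT. The sums therefore give that feature more weight than any other on the list. The summed FPKM of 12 polyadenylated variants, whose mRNAs need no SLBP, was 3620 to 5044 in IVF, 11438 to 11737 in SCNT, and 7338 and 4122 in KDM4E-SCNT.

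Of 26 replication-dependent histone features tested, 7 were higher and 6 lower in IVF than in SCNT, beside 34.9% and 23.6% of all features. The other 13 were not called, and the list's median was 0.00 against 0.39 over all features. Median-ratio scaling gave 6 higher and 7 lower with a median of -0.44, and upper-quartile scaling gave a median of -0.18. The count of 13 called fell to 8, with 4 in each direction, without SCNT replicate 1 or SCNT replicate 3. HIST1H1A, a linker histone, followed the order of SLBP2 between IVF and SCNT, at 264, 412 and 279 FPKM in IVF against 43.1, 66.0 and 59.7 FPKM in SCNT (2.47 ± 0.28, SE, limma adjusted p = 1.51e-05). HIST1H2BJ, HIST1H2BN and HIST1H2BB, all H2B genes, went the other way. HIST1H2BJ stood at 0.69, 0.95 and 8.37 FPKM in IVF, at 195, 205 and 444 FPKM in SCNT and at 54.0 and 74.6 FPKM in KDM4E-SCNT (IVF minus SCNT -6.38 ± 0.56, SE, limma adjusted p = 2.72e-06). HIST1H2BN and HIST1H2BB differed by -2.49 ± 0.33 and -2.22 ± 0.38 (SE; limma adjusted p = 4.71e-05 and 0.000301).

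In KDM4E-SCNT minus SCNT, 12 of the 26 were higher and 1 lower, beside 21.6% and 11.0% of all features. The other 13 were not called, and the list's median was 1.06 against 0.32 over all features. HIST1H1A stood at 384 and 433 FPKM in KDM4E-SCNT (2.86 ± 0.31, SE, limma adjusted p = 0.000422). HIST2H2AB, an H2A gene, was higher by 2.56 ± 0.52 and HIST1H2AG, also an H2A gene, by 2.05 ± 0.45 (SE; limma adjusted p = 0.00383 and 0.00535). The 1 lower was HIST1H2BJ (-2.02 ± 0.62, SE, limma adjusted p = 0.0266), lost without SCNT replicate 3 or either KDM4E-SCNT library. The number called was 8 without KDM4E-SCNT replicate 1, 7 without replicate 2 and 8 under median-ratio scaling (7 higher, 1 lower). In KDM4E-SCNT minus IVF, the comparison in which neither SLBP nor SLBP2 was called, 9 of the 26 were higher, beside 5.9% of all features. The other 17 were not called, and the list's median was 1.13 against -0.03. The 4 with the smallest p were HIST1H2BJ (4.36 ± 0.62), HIST1H2BN (2.40 ± 0.37), HIST1H2AC with identifier ENSBTAG00000031768.1 (3.36 ± 0.60) and HIST1H2BM (2.69 ± 0.53; SE; limma adjusted p = 0.00130, 0.00181, 0.00453 and 0.00835). The count was 5 without KDM4E-SCNT replicate 1 and 4 without replicate 2.

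Among the polyadenylated variants, 2 of 10 tested were higher and 5 lower in IVF than in SCNT, beside 34.9% and 23.6% of all features, with a median of -1.19 against 0.39. The lower ones included H2AFY, the macroH2A gene, at 2.96, 1.31 and 2.67 FPKM in IVF against 31.8, 31.4 and 31.1 FPKM in SCNT (-3.33 ± 0.33, SE, limma adjusted p = 5.8e-06). H2AFV, a variant of the H2A.Z kind, and H1F0, a linker histone of resting cells, were lower by a similar amount (-3.05 ± 0.31 and -3.45 ± 0.42, SE; limma adjusted p = 7.92e-06 and 2.84e-05). H3F3B, which encodes H3.3, stood at 9611, 9967 and 10034 FPKM in SCNT, the bulk of this list's sum. It was at 3375, 2489 and 2609 FPKM in IVF, and the KDM4E-SCNT libraries gave 5809 and 2995 FPKM. Of all features, 21.6% were higher and 11.0% lower in KDM4E-SCNT than in SCNT. In KDM4E-SCNT minus SCNT, 1 of the 10 was higher (H1FOO, 2.22 ± 0.50, SE, limma adjusted p = 0.00624, lost without KDM4E-SCNT replicate 2) and 4 lower, among them H1F0 (-3.47 ± 0.47), H3F3B (-1.24 ± 0.29) and H2AFV (-1.37 ± 0.35; SE; limma adjusted p = 0.000779, 0.00701 and 0.0110). The calls of H3F3B and H2AFV were also lost without KDM4E-SCNT replicate 2 (-0.76 and -0.75). H2AFV lost its call under quantile normalization as well (-0.91, limma adjusted p = 0.0576). The number called was 2 without KDM4E-SCNT replicate 2 and 8 under median-ratio scaling and under quantile normalization.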

How the data were processed

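Each library is a pool of 8 embryos, and groups were taken from the labels. The deposited files, 1 per library, hold FPKM computed by the authors for 21258 features, per the file headers. Tools listed, with no roles, in the submitters' processing notes were RSEM 1.2.12, StringTie 1.0.4, HISAT 0.1.6, Bowtie2 2.2.5 and bcl2fastq 2.16, with build UMD3.1. The files give no counts, so depth is unknown, and an exact 0 is given as listed at 0.

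Values were tested as log2(FPKM + 1), on which low genes show too small a change. Features with at least 1 FPKM in at least 2 libraries were kept, 14839 of 21258. limma 3.58.1 in R 4.3.3 was fitted to all 8 libraries with 3 group means (trend and robust moderation). P-values were two-sided and adjusted over all kept features by Benjamini-Hochberg, and a feature was called at an adjusted p under 0.05. The ratio of SLBP2 to SLBP was tested over libraries by an exact permutation test (scipy 1.17.1). The code was tested on simulated data.

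The genes, the lists and the rule for named genes were chosen with earlier results of these data known. Any member of the 3 SLBP pathway lists may be named; other lists give up to 4 members with the smallest p per comparison, or, for markers of other cells, the 3 with the highest mean. Markers near 0, DCN, FN1, HIST1H2AK, the remaining oocyte and variant genes and the neighbours of SLBP2 were chosen after their values were seen. LSM11, ZNF473 and FIP1L1 were matched by feature description after the files were seen. Symbols not matched, such as H2AFZ and SNRPE, were not used here. The counts of the turnover list include 1 member that is not reported here. Alternatives were another pseudocount, other filters, 3 scalings, leaving out mitochondrial genes, fitting only the groups compared, plain moderation, a replicate block and leaving out each library.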

Additional observations from a re-analysis of the deposited data

How the results depend on the processing

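The differences of SLBP and SLBP2 in IVF minus SCNT and of SLBP2 in KDM4E-SCNT minus SCNT kept their direction and call under all 18 alternatives. With 1 library left out they ranged from 1.31 to 1.78, from 3.91 to 4.25 and from 2.93 to 4.36. SLBP in KDM4E-SCNT minus SCNT ranged from 0.97 to 1.44, with the call lost without SCNT replicate 3 or KDM4E-SCNT replicate 2, and was 0.73 under median-ratio scaling (limma adjusted p = 0.0938). SLBP2 in KDM4E-SCNT minus IVF ranged from -1.17 to 0.26, reversed without KDM4E-SCNT replicate 1 (0.26). The log2 ratio of SLBP2 to SLBP ranged from 1.82 to 3.07 in KDM4E-SCNT minus SCNT and from -0.74 to 0.51 in KDM4E-SCNT minus IVF, where it reversed without IVF replicate 2 (0.06) and without KDM4E-SCNT replicate 1 (0.51). The scalings moved the median of all features by -0.12 to -0.29 in IVF minus SCNT and by -0.16 to -0.32 in KDM4E-SCNT minus SCNT. Relative to that median, SLBP2 was 3.71 higher as reported and 3.55 under median-ratio scaling in IVF minus SCNT, and 3.32 and 3.16 in KDM4E-SCNT minus SCNT; SLBP was 0.88 and 0.72 in the latter. Of the features called in IVF minus SCNT, 59.7% were higher as reported and 48.9% under median-ratio scaling. In KDM4E-SCNT minus SCNT 66.2% were higher as reported, 49.8% under quantile normalization, 43.3% with median-ratio scaling and 53.8% with upper-quartile scaling.

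The number of features called in IVF minus SCNT was 8680 as reported and 5505 in a separate fit under the stricter filter (mean of 5 FPKM), which tests fewer features. In KDM4E-SCNT minus SCNT it was 4844, and refits without 1 library gave 1575 (without KDM4E-SCNT replicate 2) to 5251. In KDM4E-SCNT minus IVF it was 967, a fit of only those 2 groups gave 541, and refits without 1 library gave 291 (without KDM4E-SCNT replicate 1) to 1287. Over the 5 histone lists together, 35 were called in KDM4E-SCNT minus SCNT, 12 (without KDM4E-SCNT replicate 2) to 36 with 1 library left out, 22 without SCNT replicate 1. In KDM4E-SCNT minus IVF 18 were called, 11 with no filter, 10 with only 2 groups and 7 (without KDM4E-SCNT replicate 1) to 16 with 1 library left out. Where no reason is given, the cause was not tested. A KDM4E-SCNT library left alone was assumed to vary like the other groups. For the other listed genes, 8601 values gave 8078 with the same call, 394 that lost it, 129 that gained it and 0 reversed. A reversal was counted only where the gene was called as reported. Changes of sign in uncalled genes were therefore not counted.

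Deviations from the group means correlated at 0.006 to 0.123 between same-numbered libraries and at -0.134 to 0.134 between the others. Deviations within a group are tied to each other, so these values cannot settle whether replicate numbers pair the libraries. With a replicate block SLBP differed by 1.54, 1.12 and -0.43 in the 3 comparisons (limma adjusted p = 0.000970, 0.0304 and 0.520) and SLBP2 by 4.10, 3.56 and -0.54 (2.84e-06, 0.000877 and 0.416). The ratio was not recomputed for the filter, moderation, 2-group and block settings, which do not apply to it.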
